A study of Homo sapiens with 12 samples.

Results

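The 9 genes described here, KIF5A, DCTN1, TUBA4A, PFN1, SPG11, VAPB, ANXA11, NEK1 and CFAP410, are ALS-linked genes of axonal transport, the cytoskeleton and membrane trafficking. They were matched by symbol, including older symbols such as C21orf2 for CFAP410, and were chosen with earlier results of these data known. All 9 are among the 20052 protein-coding genes of RefSeq, and DCTN1, VAPB and CFAP410 (3 of the 9) stand in the deposited tables of changed genes used here, out of 4693 genes listed there in all. RNA came from neurons that NGN2 overexpression produced from the WA01 line of human embryonic stem cells. The control cells (shControl) carried a scrambled hairpin RNA and the knockdown cells (shTDP-43) one against TDP-43, each for 7 days, with the same differentiation in both. There were 12 libraries, 3 of each group in total RNA-seq and 3 of each group in 3' end-seq, an assay that reads transcript ends. All libraries come from 1 cell line, and the labels do not say whether replicates were separate cultures.

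Long axons depend on motors that carry cargo along microtubules, kinesins outward and dynein with its partner dynactin back to the cell body. KIF5A is a neuronal kinesin heavy chain, DCTN1 the largest dynactin subunit and TUBA4A an alpha-tubulin of the track itself. PFN1 delivers actin monomers to growing filaments. SPG11 acts in lysosome recycling, VAPB anchors contact sites between the endoplasmic reticulum and other membranes, and ANXA11 links RNA granules to lysosomes. NEK1, a kinase, and its partner CFAP410 act at cilia and in DNA repair. Mutations in each have been linked to ALS. TDP-43 is an RNA-binding protein that represses cryptic exons and helps to set where transcripts end, and it is lost from the nucleus of affected neurons in ALS.

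The values below are the authors' own comparisons of the groups, without a value per library, so neither the spread between replicates nor the depth is known. The tables list changed items only, and how many genes could have been called is unknown. A gene that is not listed was therefore either unchanged by the authors' criteria or not tested. RNA levels of the 9 genes and of TARDBP, which encodes TDP-43, were not analysed here. The reason is that the 6 numbered columns of the gene-level table carry no label that ties a number to a group. The defining neuronal markers and the strength of the knockdown could not be checked for the same reason.

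DCTN1 and VAPB were called distal in RNA-seq, CFAP410 was called longer in 3' end-seq, and DCTN1 also changed in splicing at a pair of places. Of the 9 genes, 2 stood in the RNA-seq polyadenylation table, beside 4.18% of RefSeq protein-coding genes. From 3' end-seq polyadenylation, 1 of the 9 was listed, beside 9.54% of those genes. Splicing clusters were listed for 1 of the 9, beside 11.7% of those genes. None of the 9 had a cryptic polyadenylation site, one little used in control neurons and more used in the knockdown, beside 1.95% of those genes. At least 1 table listed 3 of the 9 (33.3%), beside 22.2% of RefSeq protein-coding genes. With 9 genes this count is a description, and the reference holds genes that neurons may not express. No gene of the 9 was listed in both polyadenylation tables.

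The dynactin gene DCTN1 had the larger of the 2 polyadenylation changes in RNA-seq. Its change of usage index was 1.46 toward distal sites in the authors' deposited table (authors' adjusted p = 1.68e-28). By size that change ranked 100 of the 841 genes listed, and by adjusted p it ranked 39, in the authors' deposited table. The median size over the authors' deposited table was 0.758, so the DCTN1 change was above the middle of the list. The index has no stated scale and exceeded 1 in size for 268 genes in the authors' deposited table, so 1.46 is no difference of fractions. That table gives no site positions, so where in DCTN1 the use moved is not known from it. DCTN1 was not listed in 3' end-seq, where the smallest change in the authors' deposited table was 0.10 in size.

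VAPB, the endoplasmic reticulum anchor, had a smaller change in the same direction. Its change of usage index was 0.340 toward distal sites in the authors' deposited table (authors' adjusted p = 0.00729). By size it ranked 741 and by adjusted p 578 of the 841 genes in the authors' deposited table, near the lower end of the list by size. VAPB would no longer be listed at an adjusted p of 0.001. Both listed genes of the 9 were distal, as were 95.0% of all genes in the authors' deposited table, so their shared direction does not set them apart. The subtracted group is not stated for RNA-seq, and distal was read as distal in the knockdown because 225 of the 234 genes listed in both assays then go the same way. VAPB was not listed in 3' end-seq, where its paralog VAPA was.

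**Figure D1:**
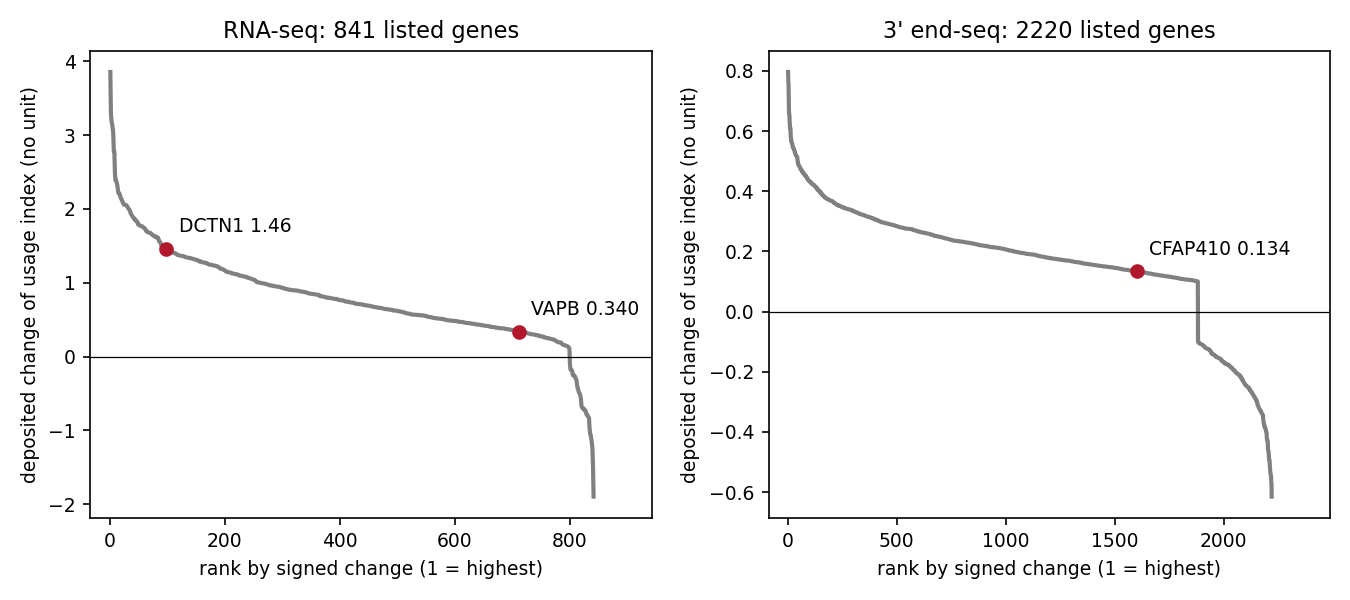
Deposited change of the polyadenylation usage index (vertical axis, no unit) against rank (horizontal axis) for the 841 genes listed from RNA-seq (left) and the 2220 listed from 3' end-seq (right), with 1 value per gene and no error given. The grey line is all listed genes and the red points are DCTN1 at 1.46, VAPB at 0.340 and CFAP410 at 0.134; all 3 lie on the positive side, and VAPB and CFAP410 lie low among the positive values.

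CFAP410, the partner of NEK1, was called longer in 3' end-seq. Its change of usage index was 0.134 in the authors' deposited table (authors' adjusted p = 1.23e-17), the size rank being 1881 of 2220 genes. The median size over the authors' deposited table was 0.212, so the CFAP410 change was among the smaller ones. The site that fell lay at position 44329890 and the site that rose at position 44328943 (chromosome 21, minus strand, hg38) in the authors' deposited table. They are 947 nt apart. The rising site was 1 nt past the RefSeq 3' end of the gene (position 44328944, GRCh38.p14), and the falling site lay 946 nt upstream of that end, inside the gene. Of the 2 sites given, the rising one was thus at the annotated end and the falling one inside the gene. Other sites of the gene, including any past its end, have no value here. Whether an A-rich stretch was primed at either site was not checked. Among 1788 genes called longer that matched a RefSeq gene, the rising site lay within 25 nt of the RefSeq end in 1187 (66.4%) and farther past it in 125 (6.99%). CFAP410 was of the common kind in this respect. Its sites were closer together than in most lengthened genes, since 440 of the 1881 called longer (23.4%) had a shorter distance and the median was 2555 nt. Of all genes listed from 3' end-seq, 84.7% were called longer. The coordinates do not tell whether an intron lies between the 2 sites. NEK1 itself was not listed in any table.

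DCTN1 lies on the minus strand of chromosome 2 (hg38), between positions 74361155 and 74391866 in RefSeq. It had 2 splicing clusters, groups of introns that share a splice site and are compared by their shares of the group. The authors' deposited table gave an adjusted p of 0.000256 to a cluster of 3 introns and of 0.00394 to a cluster of 5. They ranked 434 and 1009 of 2994 clusters by adjusted p in the authors' deposited table. Of the genes named there, 415 had 2 or more clusters, beside 2411 gene labels in all. Changes are given in percentage points of the cluster, with positive read as higher in the knockdown. The table does not state the subtracted group. That reading rests on STMN2, whose junction just upstream of its cryptic polyadenylation site had a change of 44.9 points in the authors' deposited table. Of the 9 junctions with an unannotated 3' splice site (or with both sites unannotated) that ended up to 1000 nt upstream of a cryptic polyadenylation site, 7 were positive and 2 negative.

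The 5-intron cluster held the larger changes and lay from 15124 to 18918 nt downstream of the first RefSeq start. The annotated intron from 74374340 to 74376742 gained 5.3 points in the authors' deposited table. The annotated intron that follows it, from 74372948 to 74374323, had a change of -3.2 points in the authors' deposited table. Both border the same inner exon, whose edges lie 17 nt apart in the deposited coordinates, so its upstream and downstream junctions moved in opposite directions. The intron that skips this small exon, from 74372948 to 74376742, changed by -0.6 points in the authors' deposited table. It joins annotated splice sites in a pair that is not annotated. The skipping junction thus moved by less than either annotated junction that borders the exon. The remaining introns used unannotated 5' splice sites. The short one, from 74372948 to 74373198, changed by -1.8 points, and the other, whose 5' splice site lies 3 nt from the annotated one at 74376742, by 0.3 points in the authors' deposited table. The largest change of this cluster exceeded that of 41.4% of all clusters, and the median over clusters was 6.4 points.

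RefSeq gives DCTN1 3 transcription starts, and the third, at position 74374667, falls inside the intron that gained 5.3 points. It lies 327 nt upstream of the small exon and 17199 nt downstream of the first start. A transcript that begins there lacks the 5' splice site of that intron. The share of transcripts from each start was not measured. The 250 bases upstream of this start (chr2:74374668-74374917, minus strand, RefSeq GRCh38.p14) are shown because the junction with the largest DCTN1 change spans them. They are printed 5' to 3' in lower case, with no part marked.
DCTN1 internal start, upstream: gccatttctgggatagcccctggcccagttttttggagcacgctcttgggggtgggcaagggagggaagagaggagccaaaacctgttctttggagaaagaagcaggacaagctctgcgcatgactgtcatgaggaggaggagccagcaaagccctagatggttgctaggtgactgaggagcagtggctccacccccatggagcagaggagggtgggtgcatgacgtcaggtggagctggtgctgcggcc
Their GC content was 59.2%, beside a median of 58.0% over 35116 RefSeq windows of the same length. The letters TGTGTG, a short form of the UG repeats that TDP-43 binds in RNA, were searched on both strands and were absent from this window and from those of the other 2 starts. They occurred on either strand in 14.3% of all windows. This says only that these letters are not in these windows, and the splice sites themselves lie outside them.

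The 3-intron cluster lay farther downstream, 25083 to 25491 nt from the first start, and its changes were small. The annotated intron from 74366375 to 74366459 gained 1.6 points in the authors' deposited table. The annotated intron from 74366620 to 74366783 changed by -1.1 points, and the junction from 74366375 to 74366783, which skips the exon between them, by -0.4 points in the authors' deposited table. The edges of that exon lie 161 nt apart. The annotated junctions on either side of the exon moved in opposite directions, and the skipping junction moved by less than either of them. These are not separate results, because the 3 changes are shares of the cluster and sum to 0.1 points. A skipping change smaller than both others then requires that those go opposite ways. The authors' deposited table marked this cluster cryptic although its introns use annotated splice sites only. Of 2658 clusters so marked, 499 (18.8%) held no intron classed as using an unannotated splice site. Introns of unknown strand were not set apart in that count. Only 8.12% of clusters had a smaller largest change, so this was a cluster with a low adjusted p and a small change. No DCTN1 intron changed by 10 points or more, and the largest change was under 10 points in 67.0% of all clusters.

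**Figure D2:**
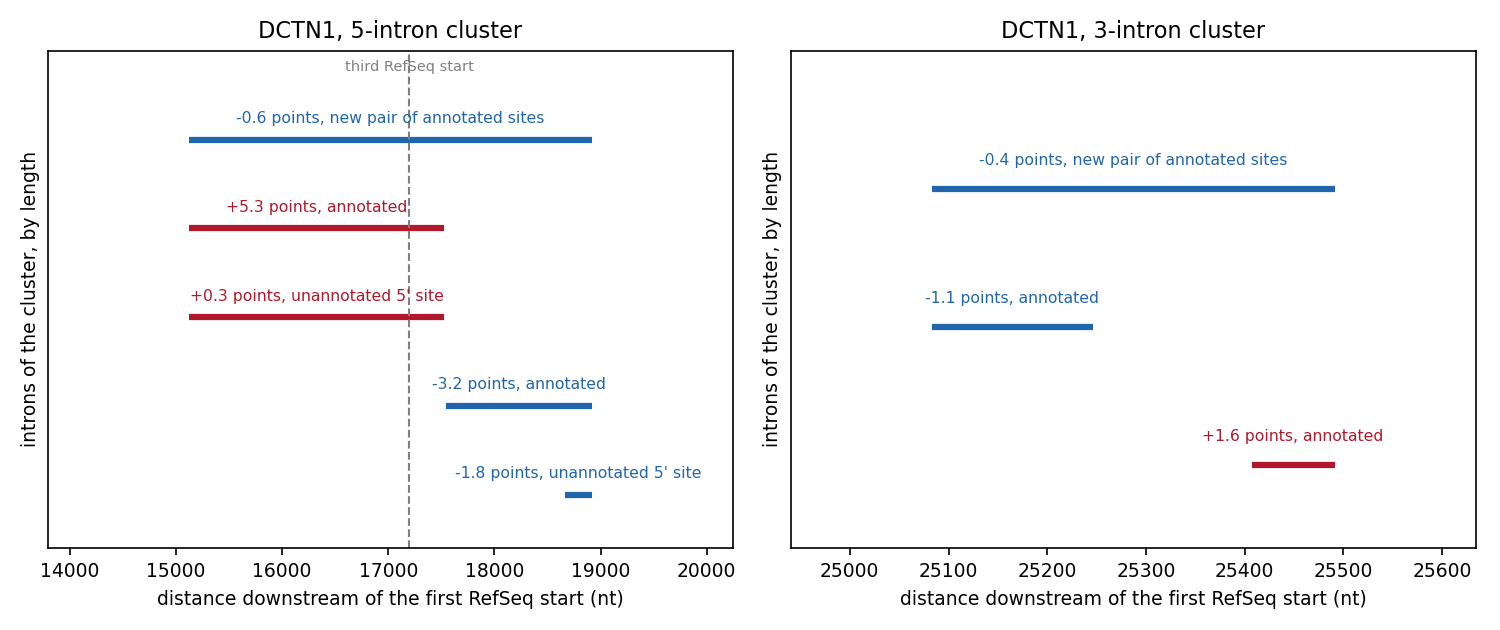
Introns of the 2 DCTN1 splicing clusters (horizontal bars) by distance downstream of the first RefSeq start in nt, with the deposited change in percentage points of the cluster written above each; red is higher and blue lower in the knockdown, as read here. In the 5-intron cluster (left) the intron upstream of the small exon stands at +5.3 and the one downstream at -3.2 points, and the dashed line marks the third RefSeq start; in the 3-intron cluster (right) no change passes 1.6 points in size.

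The other 6 genes, KIF5A, TUBA4A, PFN1, SPG11, ANXA11 and NEK1, were in none of the tables under any symbol. A search by coordinates, possible for introns and 3' end-seq sites only, gave the same answer. No such intron or site under another gene's name overlapped the RefSeq locus of any of the 9. The RNA-seq polyadenylation changes carry no positions and were not searched this way. Within 20000 nt of a locus there were 4 clusters, all of neighbouring genes. The dynactin subunit gene DCTN2 lies beside KIF5A and had 2 of them, the nearer ending 4016 nt from the KIF5A locus with a largest change of 5.0 points in the authors' deposited table (authors' adjusted p = 0.0328). CLCN3, a chloride transporter gene 8099 nt from NEK1, had a largest change of 3.4 points (authors' adjusted p = 0.0138) in the authors' deposited table. ENO3, an enolase gene 4360 nt from PFN1, had one of 10.9 points (authors' adjusted p = 0.0222) in the authors' deposited table.

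Genes that work with the 9 were counted in 8 lists by role, 111 genes in all. Of these, 46 (41.4%) were listed in at least 1 table, beside 22.2% of RefSeq protein-coding genes. In RNA-seq 8 were distal and 2 proximal, and in 3' end-seq 16 were longer and 3 shorter, beside 95.0% distal and 84.7% longer over the whole tables. Splicing clusters were listed for 23 of the 111, beside 11.7% of RefSeq protein-coding genes. These shares are descriptions only. The lists were chosen with earlier results of these data known, and the reference holds genes that neurons may not express. Where a gene had more than 1 cluster, the intron change given below is the largest of its cluster with the lowest adjusted p.

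Around DCTN1, 11 of 30 genes of dynein, dynactin and their cofactors were listed. The dynactin subunit gene DCTN5 was called longer, by 0.328 in the authors' deposited table, and the dynein chain genes DYNC1LI1 at 0.318, DYNLT3 at 0.203 and DYNC1H1 at 0.118 were too. MAPRE1, a microtubule plus-end protein, was longer at 0.183 and the dynein chain gene DYNLRB1 distal at 0.907 in the authors' deposited tables. The rising site of DYNC1H1, the dynein motor subunit, was also listed as cryptic, with usage of 1.16% in control and 11.9% in the knockdown in the authors' deposited table. DYNLL1, CLIP1, DCTN2 and DCTN3 had the lowest adjusted p in splicing (2.62e-05 to 0.0016), with largest changes in that cluster of -4.7, -3.5, 2.2 and 1.4 points in the authors' deposited table. The other DCTN2 cluster is the one named above beside KIF5A. Among other dynactin subunit genes, DCTN2 and DCTN3 were thus listed from splicing and DCTN5 from 3' end-seq. The changes given here for DCTN2 and DCTN3 were below the median of 6.4 points over all clusters.

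Around KIF5A, 7 of 12 genes of kinesin-1 and its adaptors were listed. Its paralog KIF5C was proximal at -0.18 and the light chain gene KLC3 proximal at -1.12 in the authors' deposited table, the only proximal calls in the 8 lists. The adaptor gene TRAK1 was longer at 0.197 and had an intron at -19.7 points (authors' adjusted p = 5.58e-07) in the authors' deposited tables. KLC1, MAPK8IP3 and KLC2 had intron changes of 5.7, 3.7 and 1.7 points in the authors' deposited table.

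Around VAPB, 8 of 13 genes of the VAP family and its contact site partners were listed. VAPA, the paralog of VAPB, was called longer, by 0.151 in the authors' deposited table. MOSPD3 at 0.269 and VPS13D at 0.21 were longer, STARD3 at -0.152 shorter, and RMDN3, which binds VAPB at mitochondria, distal at 0.941 in the authors' deposited tables. VPS13C, OSBP2 and VPS13A had intron changes of -3.3, -14.5 and 19.2 points in the authors' deposited table (authors' adjusted p = 0.0037, 0.0153 and 0.0436). The VPS13A value, the largest of these, thus had the highest adjusted p.

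Around TUBA4A, 6 of 16 tubulins and folding cofactors were listed. TBCD at 0.673, TUBB2B at 0.641 and TUBB at 0.347 were distal in the authors' deposited table. TUBB2A, TBCA and TBCB had largest intron changes of -6.3, -5.8 and 1.0 points in the authors' deposited table. Some tubulin genes are near-identical in coding sequence, so reads may be split among those. Around PFN1, 7 of 14 genes of actin assembly were listed. ENAH, whose product binds profilin, was longer at 0.145 and distal at 0.273 in the authors' deposited tables, with an intron at 11.7 points in its cluster of lowest adjusted p. CFL2 at 0.131 was longer, DIAPH2 at -0.177 shorter and TMSB4X at 0.142 distal in the authors' deposited tables. TMSB10, WASL and EVL had largest intron changes of 0.9, -4.7 and 5.8 points in the authors' deposited table.

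Around ANXA11, 4 of 11 genes were listed. ANXA7, another annexin, was shorter at -0.184, with an intronic cryptic site used at 1.06% in control and 19.6% in the knockdown in the authors' deposited tables. PDCD6IP was longer at 0.32 and distal at 0.446, and LAMP1, a lysosomal membrane protein gene, longer at 0.117 in the authors' deposited tables. LAMP1 also had a cryptic site past its 3'UTR, used at 1.58% in control and 16.7% in the knockdown, and SEC31A an intron at -5.6 points, in the authors' deposited tables. Around SPG11, 1 of 5 genes was listed, the adaptor subunit gene AP5M1, longer at 0.312 in the authors' deposited table. Around NEK1, 2 of 10 NIMA-related kinases were listed, NEK10 at 0.287 and NEK4 at 0.266, both longer in the authors' deposited table. The shares listed around SPG11 and NEK1 were thus below the 22.2% of RefSeq protein-coding genes. The shares of the other lists were above it. Each list is short, so its share is a description only.

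**Figure D3:**
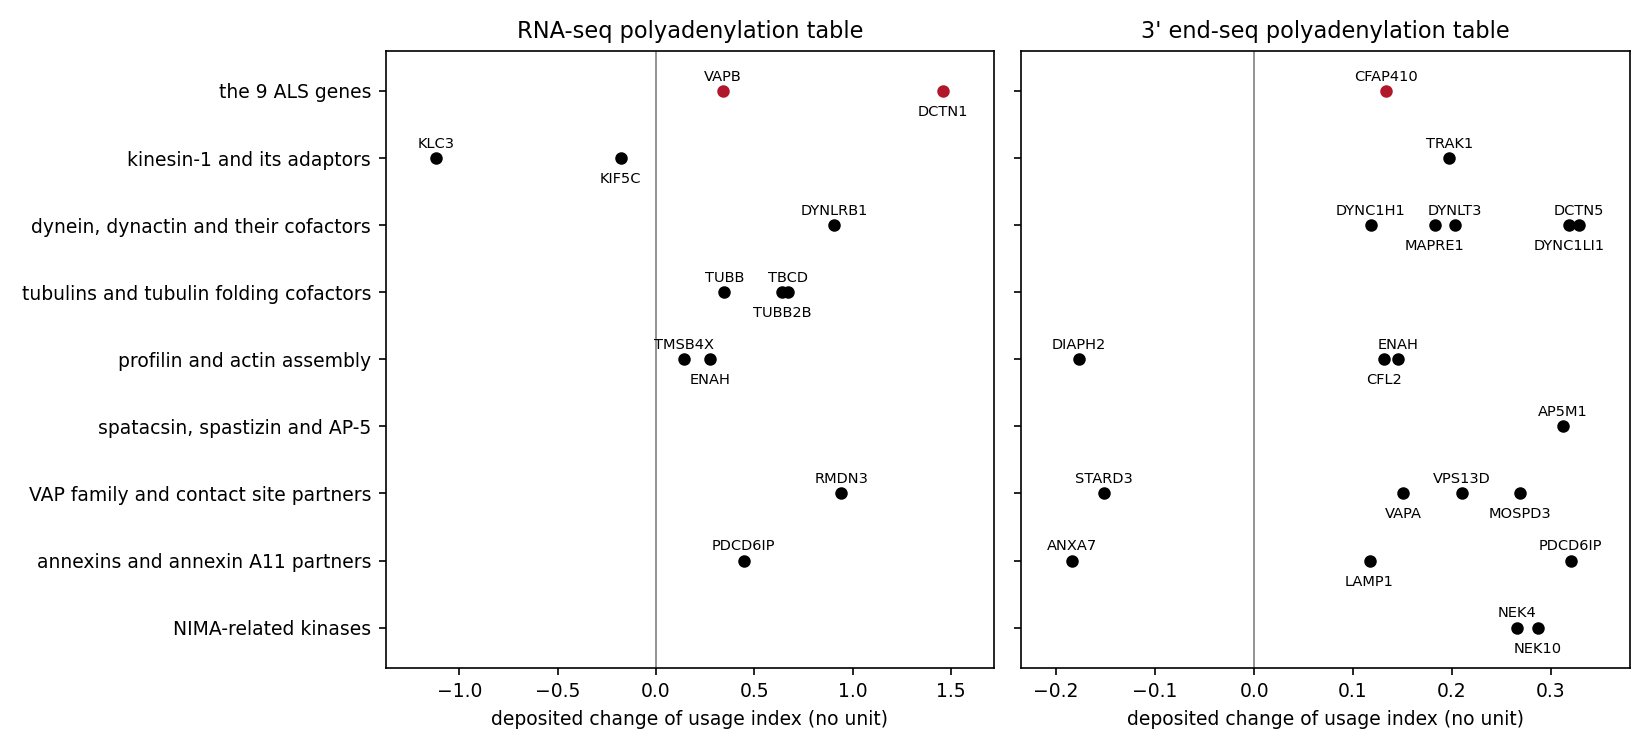
Deposited change of the polyadenylation usage index (horizontal axes, no unit, different scales) for the listed members of the 9 ALS genes (red) and of the 8 lists of genes that work with them (black), from RNA-seq (left) and 3' end-seq (right), with 1 value per gene and no error given. KLC3 and KIF5C in RNA-seq and DIAPH2, STARD3 and ANXA7 in 3' end-seq are the genes below 0.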

How the data were processed

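RNA-seq and 3' end-seq were run on 3 libraries per group. Per the labels' protocols, RNA-seq used a stranded total RNA kit and 3' end-seq a QuantSeq REV kit, in which A-rich stretches inside a transcript can be primed too and read as its end. Per the submitters' processing notes, the build was hg38 and the tools SAMtools, STAR, DESeq2, Salmon and fastp, with no role or version named. The caller of polyadenylation changes is not given in the sources used here, nor is its threshold on size.

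The changes of usage index and of intron share are scores that the authors deposited, intron shares rounded so that a cluster sums to within 0.3 points of 0. The adjusted p-values are the authors' too, up to 0.05, and are from deposited tables of changed items. Site usage is a fraction the authors deposited, 1 value per group, printed as a percent. The number of introns per cluster is as deposited. Of 459 rows of cryptic sites, 2 repeated a position and were left out. The gene-level table was left out, since no label ties any of its 6 numbered columns to a sample, and the planned expression test was not run. No test was therefore computed here, and every p is the authors'.

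Genes were matched by symbol, older symbols (RefSeq GRCh38.p14) and Ensembl identifier, and by overlap with RefSeq loci extended by 20000 nt. All 9 genes matched RefSeq, 7 of them with promoter windows. Named genes were every member in each table, every gene of the 8 lists in a polyadenylation or cryptic table, and up to 4 per list with the lowest splicing adjusted p. The members and lists were chosen with earlier results of these data known. Overlap and ranking functions were tested on simulated data. Python 3.11.15, pandas 2.3.3, numpy 2.4.6 and matplotlib 3.10.9 were used.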

Additional observations from a re-analysis of the deposited data

How the results depend on the processing

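With the adjusted p limited to 0.01, the counts of the 9 genes in the RNA-seq, 3' end-seq and splicing tables were the same. Limited to 0.001, 1 gene in place of 2 was listed from RNA-seq (DCTN1, without VAPB), and DCTN1 kept 1 of its 2 splicing clusters, while 1 gene was still listed from 3' end-seq. Requiring an intron change of at least 10 points left 0 genes with a splicing cluster, where 1 was listed without it, and 0 DCTN1 clusters. Matching by current symbol alone changed no count. No member had a cryptic site, so a minimum knockdown usage of 20% could not change that count. No paired analysis was possible because the tables used hold no value per library; leaving out a replicate was not possible for the same reason. The depth behind each value is unknown.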
